A study of Mus musculus with 10 samples.

Results

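Peaks of H4K20me1, histone H4 monomethylated at lysine 20, were examined deep inside protein-coding genes in MuSCs, the stem or satellite cells of mouse skeletal muscle, grown in culture. A peak was taken as deep when it lay on an autosome, was shorter than 50 kb, was listed with a protein-coding gene, overlapped that gene body with a deposited fraction of 1 and had its centre more than 10 kb from the transcription start site (TSS) of the gene. The rule used positions only and no measured level. It was met by 16833 of 44925 H4K20me1 peaks, or 41.05% of the 41008 autosomal peaks, and these were listed with 5103 genes.

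For mapping, CUT&RUN was used: a nuclease is tethered by the antibody to chromatin of permeabilised cells, cuts there, and the fragments set free are sequenced. MuSCs came from mice labelled Pax7CreERT/Suv4-20h1WT (Ctrl) and Pax7CreERT/Suv4-20h1KO (sKO), where Suv4-20h1 is another name of Kmt5b. Both genotypes thus carried the tamoxifen-inducible Cre recombinase driven from Pax7, and the study describes Ctrl as Kmt5b+/+ and sKO as Kmt5b flox/flox, so that deletion depends on Pax7-expressing cells and on how many of them recombined. Each genotype had 2 libraries for H4K20me1 and 2 for Pol II S2P, RNA polymerase II whose C-terminal domain is phosphorylated on serine 2, all described as biological replicates. No use was made of the 2 IgG libraries. The labels of the libraries give neither the age nor the sex of the mice, and no RNA was measured in them that could be set against the labelled cell type.

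H4K20 is monomethylated by KMT5A, mainly late in the cell cycle, and KMT5B converts the monomethyl mark to dimethyl after replication. H4K20me1 typically covers long stretches of gene bodies rather than sharp sites. Pol II S2P is the elongating form of the polymerase and travels through gene bodies together with the RNA being made.

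To show what deep peaks look like as sequence, the central 300 bases of 6 peaks are printed. These are the 3 called peaks with the largest rise in sKO (Lamb3, Fggy and Cep41), the Pax7 peak with the largest rise, and 2 of the 5 peaks with the lowest log2 fold change (Sgcz and Sntg1). All 6 windows lie in introns by GENCODE M21. They were read from GRCm38 (RefSeq), and capitals mark CG dinucleotides.
Lamb3 (chr1:193338350-193338649, plus strand): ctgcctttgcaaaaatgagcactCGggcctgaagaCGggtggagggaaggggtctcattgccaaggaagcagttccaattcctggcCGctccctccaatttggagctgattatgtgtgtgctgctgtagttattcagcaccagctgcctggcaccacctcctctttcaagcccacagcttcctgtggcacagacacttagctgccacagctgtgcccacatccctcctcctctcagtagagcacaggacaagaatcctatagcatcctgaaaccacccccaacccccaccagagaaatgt
Fggy (chr4:95612250-95612549, plus strand): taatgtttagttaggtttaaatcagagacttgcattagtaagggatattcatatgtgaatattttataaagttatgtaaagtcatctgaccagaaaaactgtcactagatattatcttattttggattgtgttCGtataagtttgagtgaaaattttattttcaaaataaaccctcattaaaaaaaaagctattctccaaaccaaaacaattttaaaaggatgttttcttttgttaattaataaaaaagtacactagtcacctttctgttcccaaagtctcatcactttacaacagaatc
Cep41 (chr6:30675550-30675849, plus strand): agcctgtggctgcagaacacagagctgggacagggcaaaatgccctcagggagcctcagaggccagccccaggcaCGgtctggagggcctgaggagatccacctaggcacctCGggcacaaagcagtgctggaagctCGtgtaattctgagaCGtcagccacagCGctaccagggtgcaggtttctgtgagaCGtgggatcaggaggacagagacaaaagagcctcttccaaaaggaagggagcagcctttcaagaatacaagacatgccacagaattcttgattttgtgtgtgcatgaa
Pax7 (chr4:139768950-139769249, plus strand): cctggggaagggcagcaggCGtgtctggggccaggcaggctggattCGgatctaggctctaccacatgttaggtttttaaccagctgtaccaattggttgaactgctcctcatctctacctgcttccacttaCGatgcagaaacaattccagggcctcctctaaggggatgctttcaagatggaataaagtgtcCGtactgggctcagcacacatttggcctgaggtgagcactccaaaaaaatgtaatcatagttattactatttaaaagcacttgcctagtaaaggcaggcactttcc
Sgcz (chr8:37807450-37807749, plus strand): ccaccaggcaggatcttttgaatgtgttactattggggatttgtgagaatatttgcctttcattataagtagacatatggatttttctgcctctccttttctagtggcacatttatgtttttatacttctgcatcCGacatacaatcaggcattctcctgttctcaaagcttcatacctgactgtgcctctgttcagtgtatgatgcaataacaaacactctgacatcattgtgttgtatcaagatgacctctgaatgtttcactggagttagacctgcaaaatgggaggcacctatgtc
Sntg1 (chr1:8461650-8461949, plus strand): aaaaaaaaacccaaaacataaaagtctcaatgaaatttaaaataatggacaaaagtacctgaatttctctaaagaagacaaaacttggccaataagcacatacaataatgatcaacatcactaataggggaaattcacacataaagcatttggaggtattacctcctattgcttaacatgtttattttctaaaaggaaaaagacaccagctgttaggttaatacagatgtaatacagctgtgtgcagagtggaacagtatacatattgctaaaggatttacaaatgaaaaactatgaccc
The 4 windows from peaks that rose held 3, 1, 6 and 4 CG dinucleotides, and those of Sgcz and Sntg1 held 1 and 0. Among windows not printed, those of the lowest peaks in Auts2, D630045J12Rik and Skint2 held 7, 1 and 0. Those of the large rises in 2010111I01Rik and Zeb2 held 3 and 2. The Auts2 and Skint2 windows overlap an exon. The numbers of CG thus did not separate rising peaks from the lowest ones. The Fggy window and the Sntg1 window were the most AT-rich, with a GC content of 27.0% and 31.7%. CG, searched on both strands at once because it is its own reverse complement, was present in 87.8% of the central windows of all 16833 deep peaks, with a median of 2 per window.

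Deep peaks were broad and lay mostly in introns of long genes. Their median length was 8200 bases, their centres lay a median of 70.8 kb from the TSS, and together they covered 193 Mb. Exons of GENCODE M21 made up 5.29% of their bases and coding sequence 2.34%, whereas exons made up 8.94% of the bases of gene-start peaks, defined as peaks of the same length limit with a centre within 2 kb of the TSS of a protein-coding gene. An exon was overlapped by 53.0% of deep peaks, and 47.0% were wholly intronic. Despite the distance to the listed TSS, 9.90% contained the start of another protein-coding transcript of the same gene and 1.42% that of another gene. The deposited fraction is rounded, and 97.6% of deep peaks lay inside the gene to the last base.

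Deep peaks were spread unevenly over genes. A single deep peak was found in 2140 genes (41.9%), 2 to 9 in 2647 genes, and 10 or more in 316 genes, which held 29.1% of all deep peaks. The largest numbers were listed for Gm20388 (124 peaks), Fgfr2 (87), Cdh13 (48), Pde4d (40) and Auts2 (40). Gm20388 and Fgfr2 are models of 4435 kb and 2961 kb in the annotation used, and 66 and 44 of their peaks overlapped a further protein-coding gene, so that these peaks can belong to genes other than the listed one. This applied to 4.51% of all deep peaks.

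H4K20me1 in deep peaks was higher in both sKO libraries than in both Ctrl libraries. The deposited value is a score, normalised coverage that is not divided by length, and it was divided by peak length here wherever peaks are compared with each other. Among the 16798 deep peaks with a mean score over 50 (35 were lower and not tested), the median score per kb was 18.6 in Ctrl 1, 25.8 in Ctrl 2, 46.6 in sKO 1 and 50.6 in sKO 2. The mean over libraries was 22.2 ± 5.05 for Ctrl against 48.6 ± 2.83 for sKO (SD, n = 2 each). The groups did not overlap, and the 2 Ctrl libraries differed more from each other than the 2 sKO libraries did. The library medians of log2(score + 1) differed by 1.20 (pooled SD 0.22, n = 2 each), with a two-sided p of 0.33 by exact permutation, which is the lowest that 2 libraries against 2 can reach. Whether more cells carried the mark or each cell carried more of it cannot be told apart in bulk material.

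**Figure D1:**
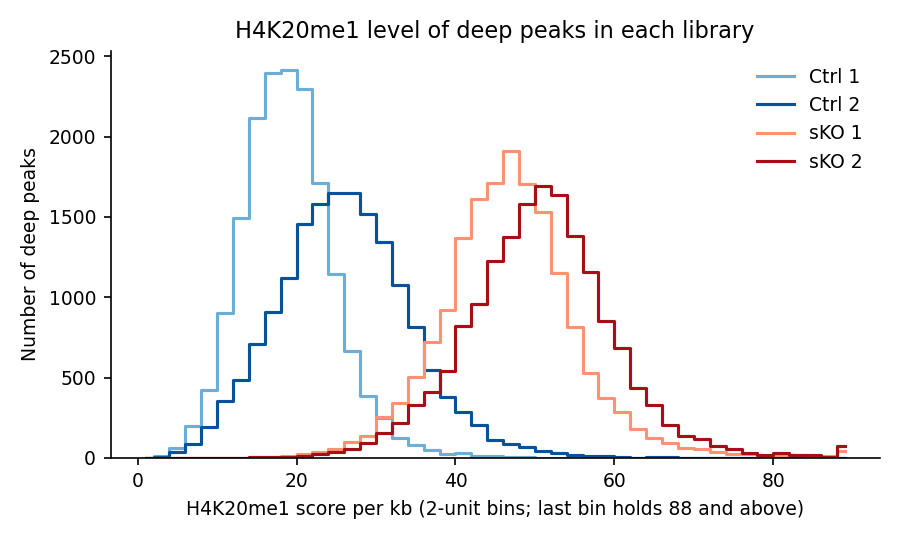
Distribution of the H4K20me1 score per kb (x axis) over the 16798 tested deep peaks (y axis, number of peaks) in each of the 4 libraries. The Ctrl distributions centre on 18.6 and 25.8, the sKO distributions on 46.6 and 50.6, and the tails of Ctrl 2 and sKO 1 overlap.

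Peak by peak, limma called 15223 deep peaks (90.6%) higher in sKO and 0 lower, where a call needed an absolute log2 fold change over 0.5 and an adjusted p (Benjamini-Hochberg) under 0.1. Over all 40902 autosomal peaks tested, 90.1% were called higher and 0.00244% lower, so deep peaks were called at the rate of all peaks. The median log2 fold change of deep peaks was 1.14, with quartiles of 0.84 and 1.45, and that of all peaks was also 1.14. Without adjustment, 14714 deep peaks had p under 0.05 and 0 of them were lower. The lower sKO library exceeded the higher Ctrl library in 94.2% of deep peaks against 93.9% of all peaks, and the reverse was seen in 4 deep peaks. The called share was 79.4% without Ctrl replicate 1, 97.7% without Ctrl replicate 2, 58.2% without sKO replicate 1 and 43.4% without sKO replicate 2, and the median fold change stayed between 0.92 and 1.36. Each of these fits has 1 library in an arm, which was assumed to vary like the other genotype, whose pair of libraries alone supplied the spread. Because a difference in scale between libraries enters all peaks alike, these calls are not independent of each other.

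The common rise rests on the deposited scale, since no spike-in counts were used. More uniquely mapped H4K20me1 reads are listed by the study for each sKO library than for either Ctrl library. Their part in the rise was not tested. With the libraries scaled to equal totals over autosomal peaks, which removes a common change by construction, 3449 of 16794 deep peaks (20.5%) were called higher and 687 (4.09%) lower, where the shares of all peaks were 22.5% and 4.42%. The median log2 fold change of deep peaks was 0.16 on that scale instead of 1.14. Deep peaks held 29.1% of the autosomal H4K20me1 score in each Ctrl library, and 30.6% and 30.8% in the sKO libraries. This share is free of the scale between libraries, and it differed by 1.56 percentage points (pooled SD 0.08, exact two-sided permutation p = 0.33). Under quantile normalisation the difference turned to -0.80 percentage points.

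The level of H4K20me1 was more alike from one deep peak to the next in sKO. The 90th percentile of the score per kb was 2.14 and 2.34 times the 10th in the Ctrl libraries, and 1.54 and 1.57 times in the sKO libraries. In deep peaks of at least 10 kb, where scores are larger, the ratios were 1.92 and 2.0 in Ctrl against 1.38 and 1.38 in sKO. The groups did not overlap in either case (exact two-sided permutation p = 0.33 for each). Other peaks narrowed too. Over all autosomal peaks the ratios went from 2.27 and 2.50 in Ctrl to 1.56 and 1.58 in sKO, and in gene-start peaks from 2.49 and 2.91 to 1.5 and 1.57. Lower scores also vary more by counting error, and the part of this in the wider Ctrl spread was not tested.

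The difference between genotypes was largest in the deep peaks with the lowest level in Ctrl. Deep peaks were put into 5 equal groups by their score per kb in Ctrl 1, and the change was then measured from Ctrl 2 only, so that error in Ctrl 1 could not enter both. From the lowest to the highest group the median score per kb in Ctrl 2 went from 17.1 to 33.2. The sKO libraries showed no such range. In sKO 1 the medians went from 45.8 to 48.2, and in sKO 2 from 49.8 to 52.1. The median log2 ratio of the sKO mean to Ctrl 2 was 1.5, 1.11, 0.93, 0.80 and 0.58 in the 5 groups, and the gain per kb fell from 31.1 to 16.5 score units. Grouping by Ctrl 2 and measuring from Ctrl 1 gave ratios from 1.88 down to 1.02, with sKO medians between 46.1 and 51.1 in every group. The lowest Ctrl 1 group had shorter peaks (median 6400 bases) than the highest (12800 bases). The peak set is the union over libraries, and which library called a peak was not used here, so a peak low in Ctrl may be listed because of sKO.

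**Figure D2:**
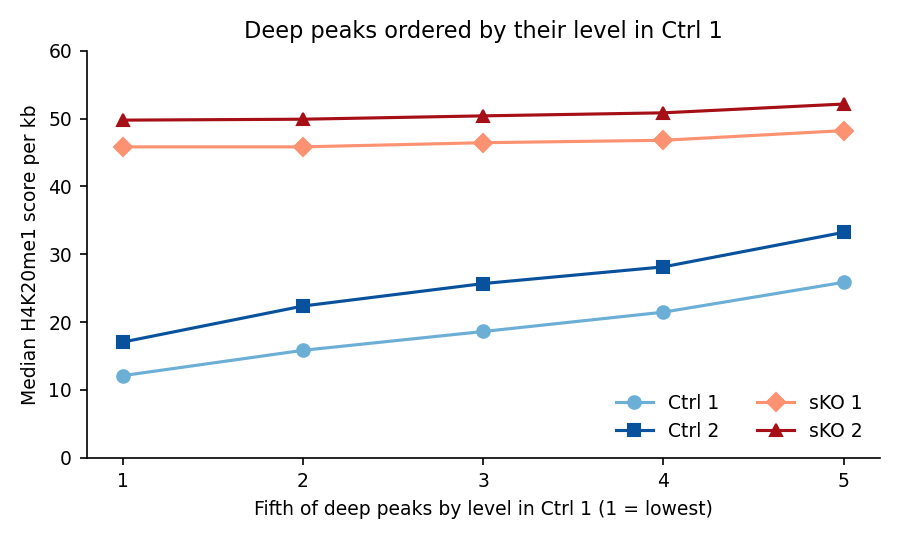
Median H4K20me1 score per kb (y axis) of deep peaks in 5 equal groups ordered by their level in Ctrl 1 (x axis), 1 line per library. Ctrl 2 climbs from 17.1 to 33.2, while sKO 1 and sKO 2 stay between 45.8 and 52.1.

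Deep peaks were the higher class in Ctrl and no longer so in sKO. In Ctrl their median level lay above that of the 1512 tested gene-start peaks, which had 15.8 and 20.7 score units per kb. In sKO gene-start peaks reached 48.2 and 52.9, above the deep peaks. On the log2 scale, deep minus gene-start level was 0.23 and 0.32 in the Ctrl libraries but -0.05 and -0.06 in the sKO libraries, a difference of -0.33 (pooled SD 0.04, exact two-sided permutation p = 0.33). This contrast is taken within each library, so a scale between libraries cannot enter it. It was negative under each of the 14 alternatives run, with values from -0.43 to -0.24. These alternatives reuse the same libraries and are not independent, and equal totals leave such a contrast nearly unchanged by construction. Correspondingly, the median log2 fold change of gene-start peaks was 1.5, and 48.9% of them were called higher on equal totals against 20.5% of deep peaks.

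The same held when deep and gene-start peaks of one gene were compared. In 629 genes with both kinds, the median of deep minus gene-start level was 0.15 and 0.21 in Ctrl, and -0.06 and -0.07 in sKO (difference -0.24, pooled SD 0.03, exact two-sided permutation p = 0.33). The deep peaks had the higher mean level in 63.8% of these genes in Ctrl and in 40.7% in sKO. Intergenic peaks were closer to deep peaks. The 8984 tested intergenic peaks had 16.8 and 24.3 score units per kb in Ctrl and 44.8 and 48.6 in sKO, and deep minus intergenic level was 0.14 and 0.08 in Ctrl and 0.06 in each sKO library. This difference of -0.06 (pooled SD 0.03) changed sign under quantile normalisation, to 0.01.

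**Figure D3:**
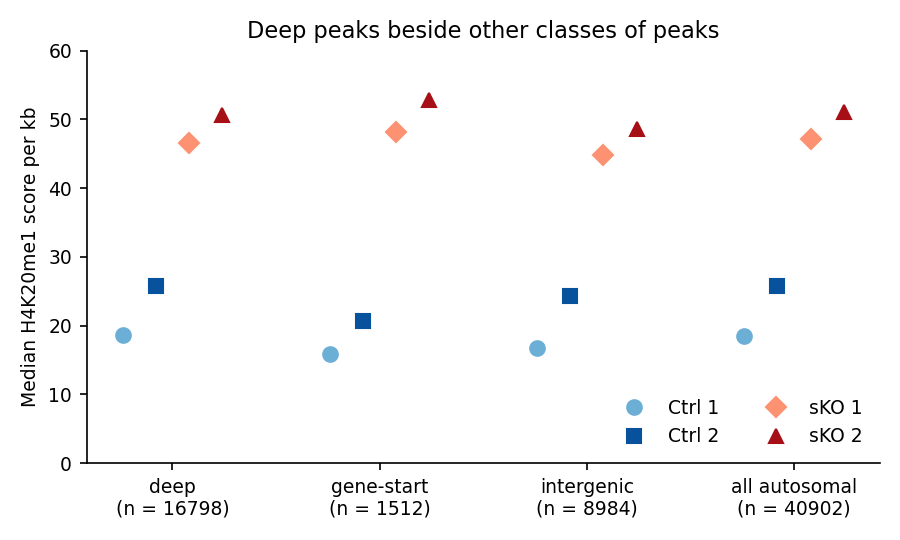
Median H4K20me1 score per kb (y axis) of deep, gene-start, intergenic and all autosomal tested peaks (x axis), 1 point per library. The deep peaks lie above the gene-start peaks in Ctrl (18.6 and 25.8 against 15.8 and 20.7) and below them in sKO (46.6 and 50.6 against 48.2 and 52.9).

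Position within the gene made a small difference. Deep peaks 10 to 25 kb from the TSS had a median log2 fold change of 1.09, and those over 200 kb away had 1.18, with medians of 1.13, 1.13 and 1.15 between. Centred on each peak's own mean, the contrast of peaks over 100 kb from the TSS minus peaks within 25 kb was -0.06 and -0.02 for the Ctrl libraries against 0.03 and 0.04 for the sKO libraries, a difference of 0.08 (pooled SD 0.02). In peaks shorter than 10 kb it turned to -0.02. Position as a share of gene length separated the peaks more. Those in the first 20% of the gene had a median of 1.07 and those in the last 20% had 1.22, and the contrast of last minus first was -0.06 and -0.08 in Ctrl against 0.09 and 0.08 in sKO (difference 0.15, pooled SD 0.01, exact two-sided permutation p = 0.33). Since every centre lies over 10 kb from the TSS, only long genes can have deep peaks in their first 20%. Gene length was not matched, and this contrast was not run under the alternatives.

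The change also differed with base composition and repeats. In 5 equal groups by GC content the median log2 fold change was 1.09 in the lowest, with a median GC of 38.1%, and between 1.13 and 1.17 in the others. By CG dinucleotides per kb it was 1.04 where they were fewest and 1.19 where they were most frequent. Of these peaks 12.7% and 26.8% were called higher on equal totals, against 22.5% of all peaks. A Pol II S2P peak overlapped 9.69% and 33.1% of them, and its part in this difference was not tested. By the share of soft-masked repeat bases the median log2 fold change was 1.21 where repeats were fewest. It was 1.02 where repeats were most frequent, a group with a median of 33.5% masked bases. By chromosome the medians ranged from 1.02 on chromosome 9 to 1.26 on chromosome 3. Deep peaks that overlapped an exon and those that did not had medians of 1.14 and 1.13, and peaks with and without a protein-coding transcript start inside had 1.13 and 1.14.

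Elongating polymerase was listed in a minority of deep peaks. A Pol II S2P peak overlapped 19.8% of them, against 36.6% of gene-start and 10.1% of intergenic peaks, and 74.3% lay in a gene listed with a Pol II S2P peak somewhere. The change of H4K20me1 was larger in deep peaks with Pol II S2P than in those without. In the 13488 tested deep peaks with none the median log2 fold change was 1.11, and in the 2040 with exactly 1 it was 1.36. The latter had 18.1 and 23.0 score units per kb in Ctrl and 49.3 and 53.3 in sKO. For peaks with none the Ctrl levels were 18.6 and 26.1 and the sKO levels 45.9 and 50. Thus peaks with 1 Pol II S2P peak were above those with none in sKO and below them in Ctrl, in Ctrl 1 only slightly. On the log2 scale this level difference was -0.03 in Ctrl 1, -0.18 in Ctrl 2, 0.10 in sKO 1 and 0.09 in sKO 2. The Pol II S2P peaks are also a union over libraries, so a Pol II S2P peak may be listed because of sKO.

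The relation turned in the deep peaks with the most Pol II S2P peaks, a number that does not measure the amount of polymerase. The median log2 fold change was 1.38 with 2 Pol II S2P peaks, 1.30 with 3 and 1.12 with 4. It was 1.0 with 5 and 0.71 with 6 or more. The 173 peaks in the last group were the highest of these groups in Ctrl, at 27.4 and 33.5 score units per kb, but not in sKO, at 48.4 and 53.2. Their level minus that of peaks with none was 0.55 and 0.35 on the log2 scale in Ctrl, and 0.07 and 0.09 in sKO (difference -0.37, pooled SD 0.10, exact two-sided permutation p = 0.33). On equal totals 33.5% of these 173 peaks were called lower and 13.9% higher, where all tested peaks gave 4.42% and 22.5%.

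Length and Pol II S2P went together, since longer peaks can hold more polymerase peaks. Within 5 equal groups by length, deep peaks with Pol II S2P had a median log2 fold change of 1.68, 1.69, 1.51, 1.36 and 0.95 from the shortest to the longest, and those without had 1.04, 1.17, 1.17, 1.12 and 1.0. The difference was 0.64 in peaks up to 4600 bases and -0.06 in peaks of 17200 bases or more. Among these longest peaks the median was 1.0 with no Pol II S2P peak, 1.0 with 1 to 2, 0.91 with 3 to 5 and 0.62 with 6 or more (n = 2232, 772, 220 and 136). Over all lengths, the centred contrast of deep peaks with minus without Pol II S2P was -0.02 and -0.15 in Ctrl and 0.11 and 0.10 in sKO (difference 0.19, pooled SD 0.07, exact two-sided permutation p = 0.33). It was positive under each of the 14 alternatives, from 0.13 to 0.47, which again reuse the same libraries. The contrast by gene, deep peaks of genes with a Pol II S2P peak minus those of genes without, was smaller at 0.08 (pooled SD 0.04).

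**Figure D4:**
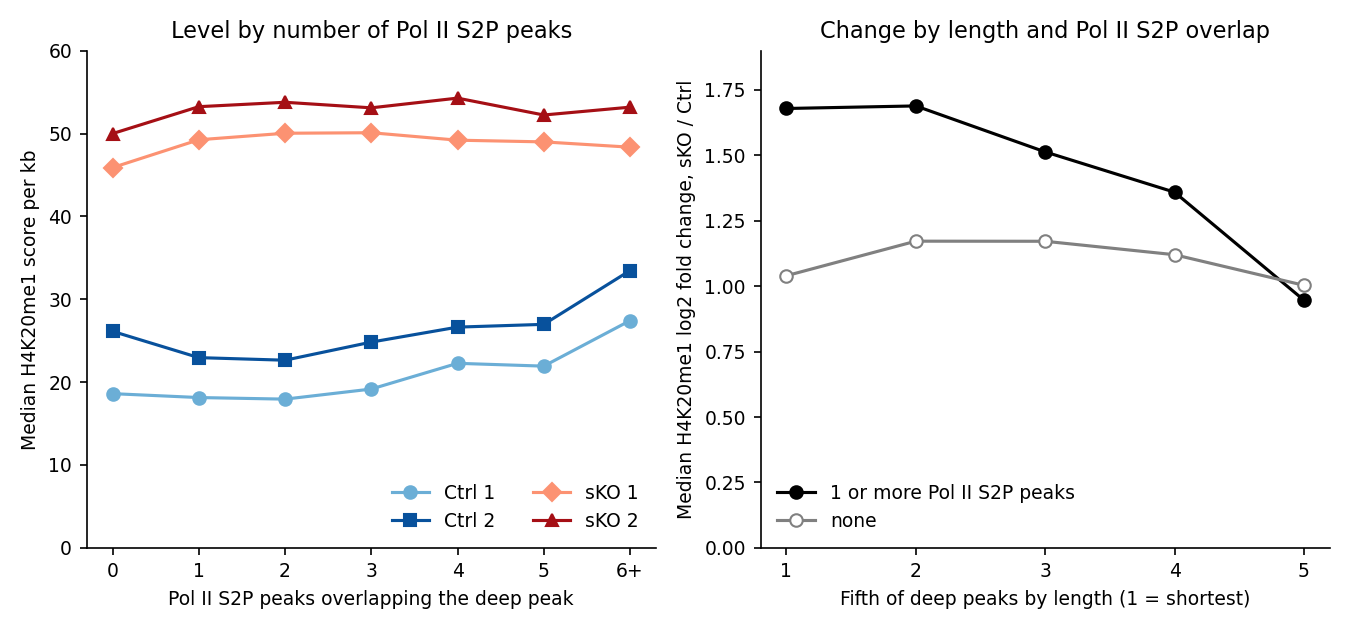
Left, median H4K20me1 score per kb (y axis) of deep peaks by the number of Pol II S2P peaks they overlap (x axis, 6+ stands for 6 or more), 1 line per library. Right, median log2 fold change of H4K20me1 (y axis) in 5 equal groups of deep peaks by length (x axis), with and without a Pol II S2P peak: the gap is 0.64 in the shortest group and -0.06 in the longest.

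The Pol II S2P signal inside deep peaks was compared in the same way. Of 50698 autosomal Pol II S2P peaks, 6615 (13.0%) overlapped a deep peak, and 9.12% of these lay within 1 kb of a protein-coding transcript start. Their median length was 372 bases, and 2814 passed the minimum mean score of 50. The median score of the tested peaks was 74.0 and 98.0 in Ctrl, and 108 and 79.0 in sKO. Ctrl 2 lay between the sKO libraries, so the groups overlapped. The library medians of log2(score + 1) differed by 0.12 (pooled SD 0.30, exact two-sided permutation p = 0.667), and the sign turned without Ctrl replicate 1 (-0.08) or without sKO replicate 1 (-0.12).

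No call was made by limma among the 2814 peaks (0 in either direction), where 0.0447% of all 22353 tested Pol II S2P peaks were called higher and 0.00447% lower. Unadjusted, p was under 0.05 for 52 of them, of which 48 were higher in sKO. On equal totals 26 (0.924%) were called higher and 38 (1.35%) lower, beside 2.49% and 1.20% of all tested peaks. The sKO libraries were both above the Ctrl libraries in 15.4% of the peaks inside deep peaks and in 16.7% of all. On the deposited scale no change in polymerase inside deep peaks was thus called with the spread between these libraries. H4K20me1 was called higher in 94.6% of the deep peaks with 1 Pol II S2P peak and in 90.3% of those with none. With 2, 3, 4 and 5 Pol II S2P peaks 93.6%, 88.9%, 87.1% and 82.9% were called higher, and with 6 or more 65.3%. The share over all autosomal peaks was 90.1%. Pol II S2P peaks are shorter and their libraries overlapped, so these shares do not compare the sizes of the changes.

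Single deep peaks that rose most had very low Ctrl scores. The peak of Lamb3, which encodes a laminin chain of basement membranes, is 1400 bases long and lies 131 kb from the TSS. The Ctrl libraries scored 4 and 7 there, and the sKO libraries 130 and 105. Its log2 fold change was 4.22 ± 1.01 (SE, limma adjusted p 9.27e-05). The 2400-base peak of Fggy, a carbohydrate kinase gene, scored 16 and 4 in the Ctrl libraries, but 134 and 168 in those of sKO. The log2 fold change was 4.03 ± 0.81 and limma's adjusted p 4.08e-06. In both the groups were far apart, but the Ctrl scores were so low that the pseudocount of 1 enters the fold change. Both peaks passed the minimum mean score for testing only through their sKO scores. They were then picked for the size of their rise, so their p-values are no independent support for it. The Lamb3 peak was not among those tested on equal totals, where the Fggy peak had a log2 fold change of 3.11.

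Cep41, which encodes a centrosomal and ciliary protein, had a longer peak of 6200 bases with no Pol II S2P peak, which scored 25 and 29 in Ctrl against 358 and 411 in sKO (log2 fold change 3.78 ± 0.43, adjusted p 2.67e-15 by limma). It was called higher on equal totals too (2.82). The remaining 2 of the 5 largest rises were in 2010111I01Rik, where Ctrl scored 28 and 12 against 227 and 276 for sKO, and in Zeb2, a zinc-finger repressor gene, where Ctrl scored 9 and 14 against 136 and 128. Of these 5 peaks 3 overlapped a Pol II S2P peak. In all 5 both Ctrl scores were below the minimum mean score, so that each was tested because of its sKO scores.

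At the other end, the 5 lowest log2 fold changes on the deposited scale were below 0, all in short peaks, and none of these was called. The peak of Auts2, a gene of neural development, scored 64 and 87 in Ctrl against 36 and 56 in sKO (log2 fold change -0.72 ± 0.60, adjusted p 0.241 by limma), so that sKO lay below Ctrl without overlap. In D630045J12Rik, Skint2, Sgcz (zeta-sarcoglycan) and Sntg1 (gamma-1-syntrophin) the groups overlapped, and Ctrl 2 was the highest library in each. For Sgcz the Ctrl libraries scored 31 and 98, and the sKO libraries 48 and 32. All 5 were called lower on equal totals, with log2 fold changes from -1.69 to -1.42, and without Ctrl replicate 1, with -1.34 to -0.94.

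The highest mean scores per kb belonged to short peaks as well. They were found in H2afy2 (macroH2A2), Smyd3 (a lysine methyltransferase), Ltbp2 (a latent TGF-beta-binding protein), Mon2 and Cadps2, all 600 to 1400 bases long, and 4 of the 5 overlapped a Pol II S2P peak. The H2afy2 peak scored 34 and 39 in Ctrl against 72 and 64 in sKO and was not called (log2 fold change 0.88 ± 0.66, adjusted p 0.193 by limma). The other 4 were called higher, with log2 fold changes from 1.17 to 1.61. On equal totals none of these 4 was called (0.20 to 0.64). Without sKO replicate 1 the calls of Ltbp2, Mon2 and Cadps2 were lost (1.23, 1.19 and 1.42), and without sKO replicate 2 those of all 4 (1.15 to 1.45).

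Deep peaks of one gene behaved alike to a degree. In the 1035 genes with 5 or more tested deep peaks, the log2 fold change had a median SD of 0.33 within the gene, the gene medians had an SD of 0.35, and all deep peaks had an SD of 0.50. Among the genes with the most deep peaks, Cdh13, which encodes T-cadherin, stood lowest. Its 48 peaks held 21.9 and 31.9 score units per kb in Ctrl and 36.4 and 39.3 in sKO, with a median log2 fold change of 0.49. Only 16 of the 48 were called higher, and on equal totals 18 were lower and 0 higher. Both Ctrl libraries were above the Ctrl medians of all deep peaks, 18.6 and 25.8, while both sKO libraries were below the sKO medians of 46.6 and 50.6.

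Gm20388, Fgfr2 (a fibroblast growth factor receptor), Pde4d (a cAMP phosphodiesterase) and Auts2 had medians of 0.95, 1.04, 0.92 and 1.22. Within Gm20388 the peaks ranged from -0.25 to 2.23, and within Pde4d from 0.26 to 3.34. In the 56 genes with 20 or more tested deep peaks the highest medians, named after their values were seen, were in Ank2 (1.54), Rabgap1l (1.52) and Sox6 (1.49). All 23 peaks of Ank2, an ankyrin gene, were called higher, where 90.1% of all peaks were. Of the 23, 15 were also called higher on equal totals and 0 lower. They went from 14.3 and 17.6 score units per kb in Ctrl to 48.1 and 46.0 in sKO, and none of them overlapped a Pol II S2P peak. Cdh13 and Ank2 thus differed in both Ctrl and sKO levels.

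**Figure D5:**
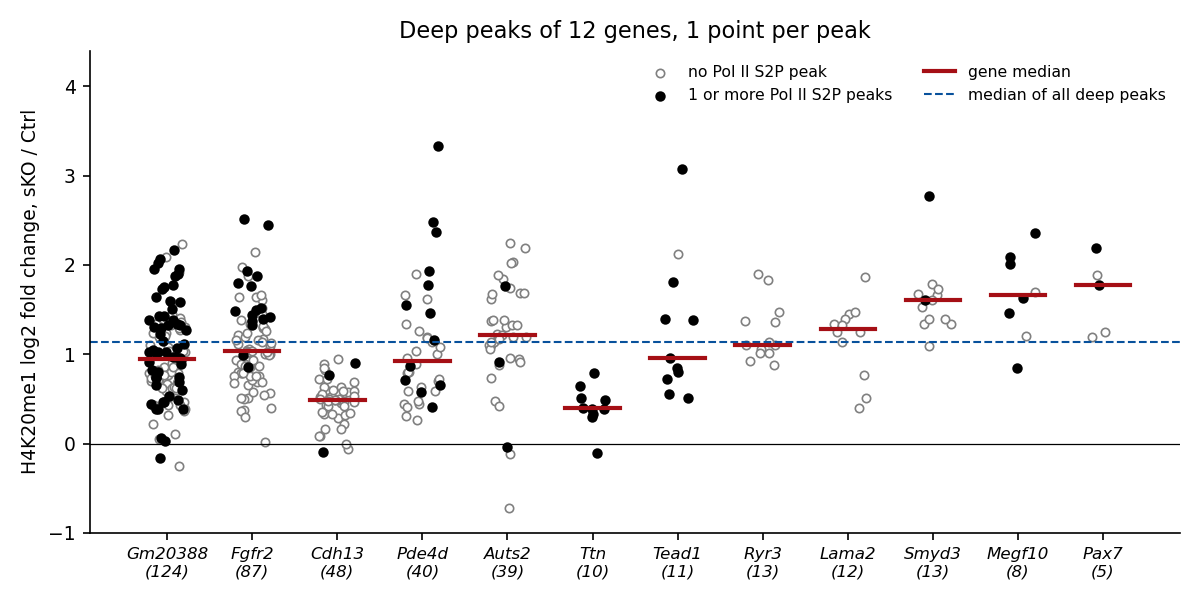
Log2 fold change of H4K20me1 between sKO and Ctrl (y axis) for each tested deep peak of 12 genes (x axis, number of peaks in brackets), with filled points for peaks that overlap Pol II S2P, red bars for gene medians and a dashed line at the median of all deep peaks, 1.14. All points of Cdh13 and of Ttn lie below the dashed line, and all points of Pax7 lie above it.

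On the deposited scale, deep peaks in genes of muscle stem cells and of muscle fibres were called higher somewhat less often than all peaks. Of all deep peaks 90.6% were called higher, and of all autosomal peaks 90.1%. On equal totals both lists were called higher more often than all peaks. Their median log2 fold changes on the deposited scale were not below the 1.14 of all deep peaks. Of 33 satellite cell and myogenic genes 20 had tested deep peaks, and 79 of these 91 peaks (86.8%) were called higher and 0 lower, with a median log2 fold change of 1.25. Their Pol II S2P overlap of 47.3% was the highest of the lists. On equal totals 26 of the 91 peaks (28.6%) were called higher and 4 lower, where all peaks gave 22.5% and 4.42%. Pax7, the transcription factor that defines satellite cells, had 5 deep peaks, whose summed score was 533 and 708 in Ctrl against 1749 and 1968 in sKO. All 5 were called higher, with log2 fold changes from 1.19 to 2.19 (limma), and 3 of them also on equal totals. One lost the call without sKO replicate 1 (0.91) and another without sKO replicate 2 (1.46). The peak printed above scored 56 and 72 in Ctrl against 314 and 275 in sKO (log2 fold change 2.19 ± 0.38, adjusted p 9.19e-08 by limma).

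Lama2 (laminin alpha-2 of the muscle basement membrane), Tead1 (a transcription factor of Hippo signalling) and Megf10 (a receptor involved in satellite cell proliferation) had the most deep peaks of this list, with 12, 11 and 8. Their medians were 1.29, 0.95 and 1.66, and 10, 9 and 8 peaks were called higher. The peaks of Tead1 ranged from 0.51 to 3.08. Its longest, at 47800 bases and with 9 Pol II S2P peaks, scored 1454 and 1788 in Ctrl against 2350 and 2387 in sKO. A peak of 7800 bases with 2 Pol II S2P peaks scored 31 and 77 in Ctrl against 370 and 479 in sKO.

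Of 24 sarcomere genes 20 had deep peaks, and 60 of 73 peaks (82.2%, against 90.1% of all peaks) were called higher with a median of 1.15. On equal totals 25 (34.2%) were called higher and 7 (9.59%) lower, against 22.5% and 4.42% of all peaks. Ttn, which encodes the giant sarcomere protein titin, had smaller changes than the median of its list. All 10 of its deep peaks overlapped Pol II S2P, up to 38 polymerase peaks in one. Their sum was 3700 and 4809 in Ctrl against 5439 and 6022 in sKO, and only 2 were called higher, with a median log2 fold change of 0.39. On equal totals 4 were called lower. In Ctrl the Ttn peaks held 26.2 and 34.0 score units per kb, above the usual level, and in sKO 38.5 and 42.6, below it. Ryr3, a calcium release channel gene, and Pdlim5 had medians of 1.11 and 1.69, and all of their 13 and 6 peaks were called higher.

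Synaptic and neuronal adhesion genes, which are long and had the most deep peaks of any list, showed a median of 1.10. Of their 269 peaks 231 (85.9%) were called higher, and 2.23% overlapped Pol II S2P. The share called is a little below the 90.1% of all peaks. On equal totals 14.5% were called higher and 3.72% lower, against 22.5% and 4.42% of all peaks. Dlg2, Kcnma1 and Rbfox1 had 36, 26 and 26 tested peaks with medians of 1.23, 1.21 and 1.36.

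On the deposited scale the next lists lay near the 90.1% called higher among all peaks. Matrix and integrin genes had 148 deep peaks, 139 (93.9%) called higher with a median of 1.23. Itga9, Col23a1 and Adamts17 had medians of 0.86, 0.94 and 1.22. In Ras and Raf signalling genes 61 of 65 (93.8%) were called higher with a median of 1.06, and Ksr2, Nf1 and Ksr1 had 1.05, 1.09 and 0.92. In replication and DNA damage response genes 54 of 62 (87.1%) were called higher with a median of 1.08, and Fancc, Prim2 and Msh3 had 1.11, 0.54 and 1.20. None of the 16798 tested deep peaks, in these lists or outside them, was called lower on the deposited scale.

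Genes of H4K20 and other histone methylation had the lowest median of the lists, 0.91, with 48 of 60 deep peaks (80.0%, against 90.1% of all peaks) called higher. On equal totals 10 (16.7%) were called higher and 8 (13.3%) lower, against 22.5% and 4.42% of all peaks. Smyd3 had 13 peaks, all called higher, with a median of 1.61. Jarid2 and Kdm4c had medians of 0.63 and 0.77. The list started from 21.6 and 30.6 score units per kb in Ctrl and reached 46.9 and 49.2 in sKO, whereas all deep peaks started from 18.6 and 25.8. Markers of endothelial, immune, fibroblast and glial cells had 30 deep peaks in 12 of 28 genes, and 28 (93.3%, close to the 90.1% of all peaks) were called higher, among them all 8 peaks of Erg and all 4 of Fli1 but 2 of 4 of Flt1. H4K20me1 in a gene is no measure of its expression, so these values do not tell which cells were present.

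Kmt5b itself had 2 deep peaks. The first, of 32600 bases, scored 1081 and 1356 in Ctrl against 1402 and 1591 in sKO and was not called (log2 fold change 0.30 ± 0.27, adjusted p 0.274 by limma), and on equal totals it was called lower (-0.68). The second, of 7200 bases, scored 152 and 223 in Ctrl against 300 and 373 in sKO and was called higher (0.86 ± 0.31, limma adjusted p 0.00794), but not without sKO replicate 1 (1.01) or sKO replicate 2 (0.70). The position of the deleted exons within these peaks is not given in the sources used here, so they were not taken as a check of the genotype.

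Rasa1, which encodes a Ras GTPase-activating protein, had 3 deep peaks with 33.8 and 44.5 score units per kb in Ctrl, well above the usual level, and 52.7 and 59.7 in sKO. Its log2 fold changes were 0.30, 0.52 and 0.81, and 2 were called higher. Arid4b, a chromatin regulator gene, had 3 deep peaks with 26.5 and 39.4 in Ctrl and 44.7 and 48.0 in sKO, log2 fold changes of 0.23, 0.53 and 0.56, and 2 called higher. In each gene 1 peak was called lower on equal totals. The peaks at 0.52 and 0.53 lost the call in eBayes without the trend. Leaving out either sKO library left no peak called in these genes (0.14 to 0.83). Without Ctrl replicate 1 the Rasa1 peak at 0.81 alone stayed called (0.56), and without Ctrl replicate 2 all 6 were called (0.53 to 1.07). In both genes the sKO libraries lay above the Ctrl libraries in summed score, and the changes were below the median of all deep peaks. Agap2 had no deep peak.

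Peaks on either side of the limits of the rule differed little. Peaks 10 to 11 kb from the TSS had a median log2 fold change of 1.17 and those 9 to 10 kb away 1.19. Peaks of 45 to 50 kb had 0.83 and those of 50 to 55 kb 0.87. The 648 peaks that met the rule but for an overlap fraction of 0.9 had a median of 1.03.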

How the data were processed

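H4K20me1 and Pol II S2P were profiled by CUT&RUN in Ctrl and sKO MuSCs. Per the submitters' processing notes the tools were Picard 2.21.7, Trimmomatic 0.39, FastQC 0.11.8, MACS2 2.1.1, STAR 2.7.3a and SICER 0.0.41, and the build mm10 (GRCm38). The authors deposited 1 score per union peak and library, described as spike-in normalised coverage, and an overlap fraction of peak and gene, which the deposited tables round. A score is not a number of reads, so the reads behind each score are unknown and no counting interval is given. The read totals that the study lists for each library were not used. Columns holding the authors' own fold changes and p-values were not used. Coordinates are as deposited and may be offset by 1 base.

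limma 3.58.1 (R 4.3.3; eBayes with trend) was run on log2(score + 1) over all autosomal peaks with a mean score over 50, which understates the change of low peaks, with Benjamini-Hochberg adjustment. It was tested on simulated data. Library values were compared by exact permutation (scipy 1.17.1). Overlaps with GENCODE M21 transcripts and Pol II S2P peaks needed 1 base. DESeq2, which the authors used, was not run because the scores were not treated as counts. The named peaks are the 5 called with the largest rise, the 5 with the lowest log2 fold change and the 5 highest per kb, 1 per gene, and the named genes are the 5 with most deep peaks, the 3 with most in each list, and Kmt5b, Rasa1, Pax7, Agap2 and Arid4b. The members and lists were chosen with earlier results of these data known. Replicates are separate samples per the labels. The limma p-values set the difference between genotypes against the spread between replicates, moderated over all tested peaks. An exact permutation p of 0.33 is the lowest possible here, whatever that spread.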

Additional observations from a re-analysis of the deposited data

Results flagged for a closer look

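Peaks on the X chromosome were left out of the comparisons, as in the study's methods. The 958 X peaks that met the rest of the rule and the minimum score had a median of 24.8 and 35.3 score units per kb in Ctrl and 37.8 and 42.4 in sKO, and the median log2 ratio of the sKO to the Ctrl mean was 0.40. The same ratio was 1.12 in the autosomal deep peaks. Both Ctrl medians on X were above the autosomal ones (18.6 and 25.8) and both sKO medians below (46.6 and 50.6), and the difference was not tested.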

How the results depend on the processing

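Percentages of deep peaks called higher and lower on the deposited scale were 90.6% and 0%. Scaling to equal totals gave 20.5% and 4.09% for H4K20me1, and quantile normalisation 9.76% and 11.9%. For Pol II S2P peaks inside deep peaks, 0% in both directions became 0.924% higher and 1.35% lower on equal totals, and 0.887% and 0.674% with quantile normalisation. These scalings remove a common change by construction. Without the trend in eBayes, 0.00595% of deep peaks were called lower. Leaving out 1 library, the share called higher lay between 43.4% and 97.7% and the share called lower between 0% and 0.125% for H4K20me1, and for Pol II S2P between 0% and 0.173% and at 0%.

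Quantile normalisation reversed the median H4K20me1 fold change of deep peaks (-0.043), the library median (-0.031), the share of the score in deep peaks (-0.80 percentage points) and deep minus intergenic level (0.012). The contrast far minus near the gene start reversed in peaks shorter than 10 kb (-0.017). The median Pol II S2P fold change and library median reversed on equal totals (-0.059 and -0.023) and with quantile normalisation (-0.057 and -0.028), and without 1 library they lay between -0.14 and 0.33 and between -0.12 and 0.34. The cause was not tested. The other 187 of 213 values of these comparisons kept their direction and lay within 1.5 times where they are counts, including those with no transcript start inside and with genes up to 1000000 bases, both chosen after seeing the data.

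The replicate numbers were not found to pair the libraries: deviations of same-numbered libraries correlated at 0.03 for H4K20me1 and -0.04 for Pol II S2P. With the replicate block 91.1% of deep peaks were called higher and 0% lower.

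Among named peaks, equal totals and quantile normalisation turned the sign in H2afy2 (-0.082 and -0.62), in Arid4b (-0.42 and -0.47, -0.74 and -1.09, -0.45 and -0.43), in Kmt5b (-0.68 and -0.61, -0.12 and -0.37) and in Rasa1 (-0.17 and -0.42, -0.68 and -0.91, -0.46 and -0.48). Quantile normalisation alone did so in Ltbp2 (-0.22), Mon2 (-0.17), Cadps2 (-0.010) and 1 peak of Pax7 (-0.12). Leaving out 1 library also turned the sign in Sntg1 (from -1.05 to 0.15) and in 1 peak of Arid4b (from -0.18 to 0.65).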
